A study of Rattus norvegicus with 98 samples.

Results

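Folate-dependent one-carbon metabolism and the serine synthesis that feeds it were described through 8 genes, Mthfd2, Mthfd1l, Shmt2, Mthfd1, Shmt1, Phgdh, Psat1 and Psph, in nasal epithelial cells of rats exposed to formaldehyde. The members were all probe sets annotated to these genes. Each gene had 1 probe set, so there were 8 of the 31042 probe sets tested, or 8 of 14217 genes with a probe set. A probe set is a group of short probes for 1 transcript on a microarray.

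In this pathway serine hydroxymethyltransferases split serine into glycine and a one-carbon unit, which folate carries at the oxidation state of formaldehyde. Free formaldehyde can also condense with tetrahydrofolate, and the MTHFD enzymes then oxidise the unit toward formate or return it to the cytosol for purine, thymidylate and methionine synthesis. In mammals the mitochondrial arm of the cycle and the serine synthesis enzymes are known targets of ATF4, the transcription factor of the amino acid and integrated stress response.

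All animals were male F344/NCrl rats of 8 weeks with no transgene named in the labels, and each of 98 rats gave 1 array (Affymetrix Rat230_2). Whole-body inhalation lasted 6 h per day, on 5 days per week in the groups of 5, 8 and 19 days. For the 6 h and 24 h groups the labels give 6 h per day and no days per week. The 24 h of a group is thus its time of collection and not the length of its exposure. In array set 1 (82 arrays), rats inhaled air, 0.7, 2 or 6 ppm formaldehyde and were sampled 6 h, 24 h, 5 days, 8 days or 19 days after the start. In array set 2 (16 arrays), all taken at 6 h, rats inhaled 15 ppm or air, or had either formaldehyde at 400 mM or distilled water instilled, 40 ul into each nostril. The sets follow the project code in the labels. Of the 24 groups 22 had 4 animals, and 2 ppm at 5 days and air at 8 days had 5. Cells were freed by protease from lateral meatus and nasoturbinate (level II of the nose), mostly transitional and partly respiratory epithelium per the labels.

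Values are log2 levels per probe set as deposited, so a difference of 1 is a doubling. The median of an array was 5.93 to 6.07, and the lowest correlation between 2 arrays of the same group was 0.9621. Levels are not compared between genes, because probe sets differ in response. Epithelial markers were high: Epcam, an epithelial adhesion molecule, averaged 12.22, above 99.1% of all probe sets. Olfactory markers were high as well, with Omp of mature olfactory neurons at 11.96, although the labels say that olfactory epithelium was discarded. The log2 of the summed level of 5 olfactory markers averaged 11.99 after instilled formaldehyde and 12.50 after water. In the other groups its mean ran from 13.47 to 14.55. Animals ran from 10.93 to 13.13 in the instilled groups and from 11.48 to 15.26 in the others. Of 5 secretory markers Bpifa1 (14.57), Agr2 (12.50), Muc5b (10.57) and Muc5ac (9.16) lay above at least 89.1% of probe sets, and Scgb1a1 (5.44) above 41.9%. Tests are moderated tests of limma, a linear model fitted over all arrays. A gene was called changed at a two-sided p below 0.05 after Benjamini-Hochberg adjustment over 31042 probe sets, with no fold threshold, and ± after a difference is the standard error. Of the 8 probe sets 7 lay between the 65.2th and 88.9th percentile of mean level, and Mthfd1l, at a mean of 4.58, lay above only 28.7%.

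The mitochondrial arm is described first. Mthfd2 encodes the dehydrogenase and cyclohydrolase of mitochondria, an enzyme low in most adult tissue and induced in growing or stressed cells. Mthfd1l encodes the mitochondrial synthetase that releases formate, and Shmt2 the mitochondrial serine hydroxymethyltransferase. Their promoters are shown because these 3 genes had the called increases. They span 250 bases before to 50 after the transcript start used in the RefSeq promoter table for the GRCr8 assembly (for Shmt2 this start lies within the outer end of the annotated gene), at chr4:117380301-117380600 on the minus strand, chr1:42849174-42849473 on the plus strand and chr7:65249518-65249817 on the minus strand, written 5′ to 3′. Capitals mark CCAAT on either strand, the letters of the box bound by NF-Y.
Mthfd2: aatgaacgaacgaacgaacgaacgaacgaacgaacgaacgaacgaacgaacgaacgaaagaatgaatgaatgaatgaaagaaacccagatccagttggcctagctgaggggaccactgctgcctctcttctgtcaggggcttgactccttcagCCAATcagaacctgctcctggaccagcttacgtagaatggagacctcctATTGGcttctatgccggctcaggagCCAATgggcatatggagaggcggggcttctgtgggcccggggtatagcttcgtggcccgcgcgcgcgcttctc
Mthfd1l: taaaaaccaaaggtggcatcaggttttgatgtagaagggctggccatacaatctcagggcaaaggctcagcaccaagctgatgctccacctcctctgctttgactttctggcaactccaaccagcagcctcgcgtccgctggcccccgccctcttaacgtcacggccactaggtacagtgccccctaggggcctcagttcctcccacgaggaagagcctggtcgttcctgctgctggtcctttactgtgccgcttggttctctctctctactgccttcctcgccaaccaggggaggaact
Shmt2: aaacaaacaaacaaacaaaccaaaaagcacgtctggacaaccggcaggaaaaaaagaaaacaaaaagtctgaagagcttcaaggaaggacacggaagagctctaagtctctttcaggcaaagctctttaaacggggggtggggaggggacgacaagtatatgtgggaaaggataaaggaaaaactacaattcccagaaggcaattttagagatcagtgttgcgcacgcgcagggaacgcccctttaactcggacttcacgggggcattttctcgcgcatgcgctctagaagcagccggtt

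Mthfd2 had 3 CCAAT matches in this window, the first bases at -97, -48 and -23 from the start, and Mthfd1l and Shmt2 had none. A promoter was held for 7 of the 8 genes, Mthfd1 being the other. CCAAT occurred in 4 of the 7 (Mthfd2, Shmt1, Phgdh and Psat1) and in 37.5% of 33469 rat promoters of the same length. The C/EBP-ATF response element, searched as TGATGNAA on both strands, occurred in 0 of 7 and in 3.98% of all. The E-box CACGTG occurred only in Shmt1 (6.42% of all), and TGACNNNGC, the core of the antioxidant response element, only in Phgdh (12.1%). No 2 of these matches overlapped. A match is a description of letters, and an absence says only that these letters are not in this window.

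Over all 24 groups Mthfd2 was highest after 5 days of 6 ppm and lowest at 6 h in the animals of array set 1 that inhaled air or 0.7 ppm. Group means ran from 6.84 at 6 h of 0.7 ppm to 7.67 at 5 days of 6 ppm. Between the highest group and the next, 2 ppm at 5 days (7.42 ± 0.21, SD, n = 5), lay 0.25, the only 1 of 23 neighbouring pairs whose gap was larger than the larger SD of the pair. Next in order came air at 24 h (7.41), 6 ppm at 24 h (7.41), instilled formaldehyde (7.40) and 15 ppm (7.34), which do not differ beyond their spread.

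**Figure D1:**
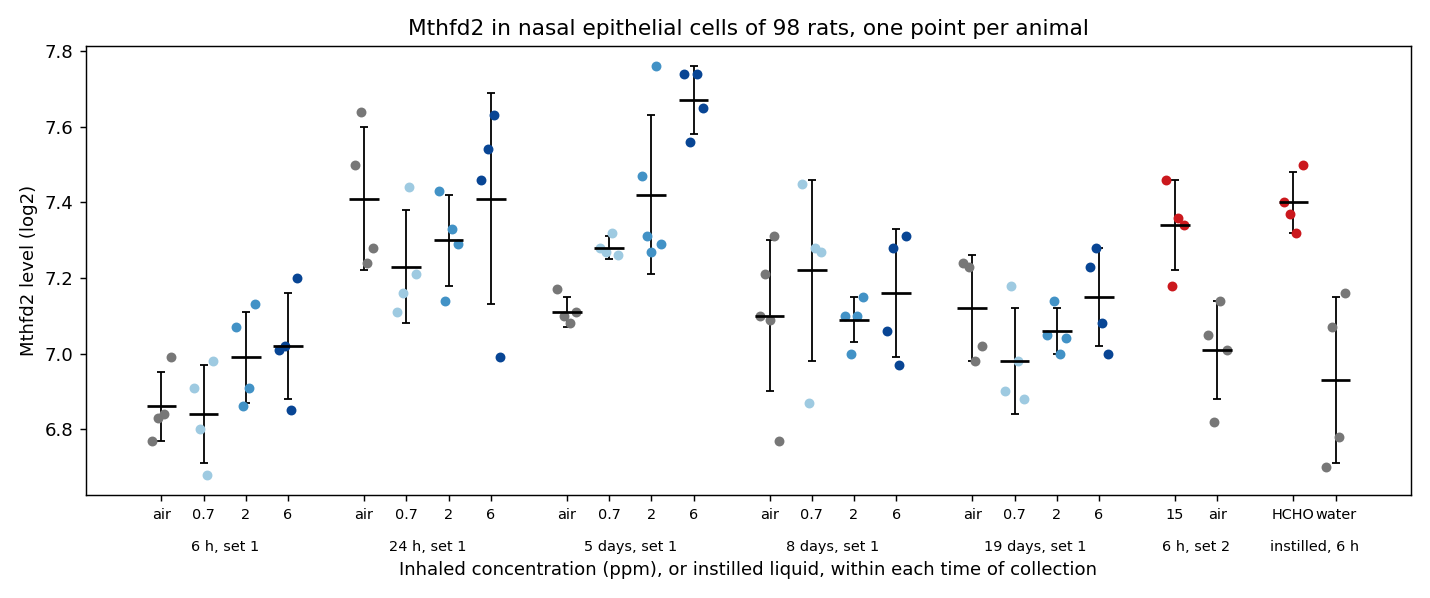
Log2 level of Mthfd2 (vertical axis) in each of 98 rats (points), by inhaled ppm or instilled liquid within each time of collection; bars are group means and whiskers are SD. At 5 days the group means run from 7.11 in air to 7.67 at 6 ppm, and at 24 h the 6 ppm animals (7.41) lie as high as the air animals (7.41).

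After 5 days of 6 ppm, Mthfd2 stood at 7.74, 7.56, 7.74 and 7.65, against 7.17, 7.10, 7.08 and 7.11 in air animals of the same day. Every exposed animal lay above every air animal. The difference was 0.56 ± 0.11 (n = 4 per group), or 1.47-fold, with an adjusted p of 0.00351 in limma. Mthfd2 was 1 of 8 members called there, and 0.119% of all probe sets were called. The call stayed in each of 8 fits that left out 1 animal (0.54 to 0.60, adjusted p up to 0.034), but in a fit of only these 8 arrays the same difference had an adjusted p of 0.15.

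The 5-day levels of the lower doses lay between. Air animals averaged 7.11 ± 0.04 (SD, n = 4). At 0.7 ppm the levels were 7.28, 7.27, 7.32 and 7.26, all above the air animals. At 2 ppm they were 7.47, 7.31, 7.27, 7.76 and 7.29, also all above the air animals. Neither difference was called: 0.17 ± 0.11 at 0.7 ppm (adjusted p = 1) and 0.31 ± 0.10 at 2 ppm (adjusted p = 0.316). Of all probe sets 1.45% at 0.7 ppm and 1.39% at 2 ppm had exposed animals all above air at this time. At 6 ppm that share was 2.44%. Because 0.7, 2 and 6 ppm share the same 4 air animals at this time, these separations are not separate observations. The SD of those air animals (0.04) lay below the mean SD within groups for Mthfd2 (0.15).

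At the other times Mthfd2 of 6 ppm animals overlapped air, and 0 of 8 members were called (0.245% of all probe sets at 6 h, 0.00322% at 24 h, 0.029% at 8 days and 0.412% at 19 days). The difference was 0.17 at 6 h, -0.01 at 24 h, 0.06 at 8 days and 0.03 at 19 days, each with an SE of 0.10 or 0.11. limma's F-test of whether the 5 differences differ gave F = 4.65 and an adjusted p of 0.496 (0 of 8 members and 0.0129% of all probe sets called). A difference between times in the 6 ppm effect therefore did not pass the test. Averaged over the 5 times, the level was 7.28 at 6 ppm and 7.12 in air, a difference of 0.16 ± 0.05 with an adjusted p of 0.0273, which without exposed animal 290 was 0.15 (adjusted p = 0.0523).

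In a single 6 h exposure to 15 ppm, Mthfd2 was 7.46, 7.18, 7.36 and 7.34, against 7.05, 6.82, 7.14 and 7.01 in air animals of array set 2. The groups did not overlap, as for 8.02% of all probe sets in this direction. The difference was 0.33 ± 0.11, or 1.26-fold (adjusted p = 0.0395), the only 1 of 8 members called, while 8.49% of all probe sets were called. That call lay near the threshold. It was lost without exposed animal 337 (0.29), 341 (0.32) or 342 (0.33) and without air animal 321 (0.34), 322 (0.27) or 325 (0.33), with adjusted p up to 0.173. The difference itself stayed between 0.27 and 0.38 whichever animal was left out. Set against the air animals of array set 1 the difference was 0.48 (adjusted p = 0.000753; 15.3% of all probe sets called).

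Instilled formaldehyde gave a similar level. Mthfd2 was 7.40, 7.37, 7.32 and 7.50 after 400 mM formaldehyde, against 6.70, 7.07, 6.78 and 7.16 after water. The groups did not overlap, as for 8.94% of all probe sets in this direction, and the SD was 0.08 after formaldehyde and 0.22 after water. The difference was 0.47 ± 0.11, or 1.38-fold (adjusted p = 0.000528), and it stayed called whichever of the 8 animals was left out (0.39 to 0.55). In all 3 of 8 members were called after instillation, where 22.2% of all probe sets were. The 15 ppm effect on Mthfd2 minus the instillation effect was -0.14 (95% interval -0.44 to 0.16), and the 15 ppm effect minus the 6 ppm effect at 6 h was 0.16 (-0.14 to 0.47). Neither was called, as for all 8 members (background 0.879% and 1.19%).

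Some markers of other cells, and RNA quality, also differed in these comparisons. Of 6 neutrophil markers 4 rose at 15 ppm and 5 after instillation, with median differences of 1.12 and 2.41. The log2 of their summed level was 11.84 to 12.13 at 15 ppm, against 9.70 to 10.51 in air, and 12.92 to 13.80 after instilled formaldehyde, against 10.50 to 11.27 after water. At 5 days it was 10.05 to 13.44 at 6 ppm, against 10.32 to 11.58 in air, with 0 of 6 called. After instillation the summed levels of 4 more lists were apart: ciliated markers were 11.13 to 11.32 after formaldehyde, against 11.56 to 11.96 after water (Foxj1 fell, 1 of 4), and stroma and vessel markers 12.70 to 13.09, against 13.20 to 13.81 (Col1a1 fell, 1 of 4). Macrophage and dendritic markers were 13.61 to 14.09, against 13.32 to 13.54 (Lyz2 and Cd68 rose, 2 of 5), and lymphocyte markers 9.41 to 9.69, against 9.11 to 9.34 (Cd3e rose, 1 of 4). At 15 ppm Krt8 and Krt18 of 5 epithelial markers rose (summed level 14.21 to 14.44, against 14.11 to 14.24 in air), and Lyz2 of the 5 macrophage and dendritic markers (13.33 to 13.64, against 13.22 to 13.39). Beside these counts, 8.49% of all probe sets were called at 15 ppm, 22.2% after instillation and 0.119% at 5 days of 6 ppm. RNA integrity numbers, a score of RNA degradation, were 7.7 to 8.2 at 15 ppm, against 7.3 to 7.8 in air, 8.3 to 8.4 after instilled formaldehyde, against 7.5 to 8.3 after water, and 7.8 to 8.2 at 6 ppm and 5 days (3 of 4 animals), against 7.7 to 7.9 in air. With that number as a covariate Mthfd2 remained called in these 3 comparisons. The part of these cells in the result was not tested. In a mixed cell suspension, fewer cells of a type and less RNA per cell cannot be told apart.

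Mthfd2 also differed between air animals. At 6 h it was 6.77, 6.83, 6.84 and 6.99 in array set 1, and at 24 h it was 7.50, 7.64, 7.24 and 7.28. It was 7.11 ± 0.04 at 5 days (n = 4), 7.10 ± 0.20 at 8 days (n = 5) and 7.12 ± 0.14 at 19 days (n = 4). The 24 h animals lay above all 6 h animals (7.54% of all probe sets did), by 0.56 on average, as large as the 5-day difference at 6 ppm. An F-test over the 5 air groups gave F = 6.77 and an adjusted p of 0.00304, 1 of 8 members called where 11.4% of all probe sets were. It stayed called whichever animal was left out. The hour of the day at collection is not stated in the labels.

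Shmt2 changed with instillation. It was 8.80, 9.16, 9.32 and 8.76 after instilled formaldehyde, against 8.42, 8.74, 8.60 and 8.74 after water. The lowest exposed animal lay only just above the highest water animals, and 8.94% of all probe sets were apart in this direction. The difference was 0.39 ± 0.13, or 1.31-fold (adjusted p = 0.0291), and it was lost without formaldehyde animal 369 (0.33) or 372 (0.28) or water animal 352 (0.32) or 355 (0.38), with adjusted p up to 0.158. In a fit of only these groups it was not called either (adjusted p = 0.119). The formaldehyde group mean of 9.01 ± 0.28 (SD) was the highest of 24, 0.39 above the next, which was the water group itself at 8.62. In the remaining groups the means ran from 8.19 to 8.59. At 15 ppm Shmt2 was 8.44 to 8.71, against 8.22 to 8.44 in air, a difference of 0.21 ± 0.13 (adjusted p = 0.422). At 6 ppm its differences ran from -0.02 to 0.18 over the 5 times, with adjusted p of 0.865 or more.

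Mthfd1l rose at 6 ppm when times were averaged. Its level over the 5 times was 4.72 at 6 ppm and 4.47 in air, a difference of 0.24 ± 0.07, or 1.18-fold (adjusted p = 0.0133). With Mthfd2 this made 2 of 8 members called, where 6.37% of all probe sets were. The 5 differences were 0.10 at 6 h, 0.21 at 24 h, 0.41 at 5 days, 0.13 at 8 days and 0.37 at 19 days, all positive and none called alone. At 19 days the 6 ppm animals had 4.78, 5.09, 4.64 and 4.69, which did not overlap air at 4.29 to 4.63 (2.15% of all probe sets were apart in this direction). Averaged over 5, 8 and 19 days the difference was 0.30 ± 0.08 (adjusted p = 0.046), 1 of 8 members and 1.11% of all probe sets called. That call was lost in 16 of 25 fits that left out 1 animal (0.27 to 0.33 over the 25 fits, adjusted p up to 0.112): exposed animal 296, 297, 298, 300, 301, 309, 310 or 312, or air animal 60, 61, 62, 67, 68, 73, 76 or 77. Both 5-time averages, of Mthfd2 and of Mthfd1l, fell short with RNA integrity as a covariate (adjusted p = 0.0846 and 0.0849). After instillation Mthfd1l was 4.06 to 4.56, against 4.37 to 4.86 after water, a difference of -0.29 ± 0.15 (adjusted p = 0.163).

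Of the cytosolic enzymes, Mthfd1 fell after instillation and Shmt1 was not called. Mthfd1 encodes the cytosolic enzyme with all 3 activities, dehydrogenase, cyclohydrolase and synthetase, and Shmt1 the cytosolic serine hydroxymethyltransferase. Mthfd1 was 9.35, 9.04, 8.74 and 8.89 after instilled formaldehyde, against 9.54, 9.52, 9.39 and 9.19 after water. The groups overlapped through 1 formaldehyde animal at 9.35. The difference was -0.41 ± 0.10, or 1.33-fold lower (adjusted p = 0.00156), and it stayed called in all 8 fits without 1 animal (-0.52 to -0.32). In a fit of only these groups it was not called (adjusted p = 0.0943). The water group had the highest mean of all 24, 9.41 ± 0.16 (SD), but only 0.04 above the next, 2 ppm at 8 days. For Mthfd1 0 of 23 neighbouring pairs had a gap larger than the larger SD of the pair.

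At 15 ppm Mthfd1 was 8.88, 9.01, 8.92 and 9.06, against 9.29, 9.19, 9.26 and 9.19 in air. No animals overlapped, and the mean of 8.97 ± 0.08 was the lowest of the 24 groups. It lay only 0.04 below the next, 2 ppm at 6 h, less than the larger SD of the pair (0.14). The difference of -0.27 ± 0.10 was not called (adjusted p = 0.0958), and 8.31% of all probe sets had groups apart in this direction. In a fit of only these groups it had an adjusted p of 0.049. At 6 ppm the differences ran from -0.11 to 0.02, none called.

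Shmt1 had no called difference. Its group means ran from 7.79 at 24 h of 0.7 ppm to 8.47 after instilled water, and the 4 lowest means were those of the 4 groups at 24 h, with air at 7.83 ± 0.10 (SD). Animals of 1 group differed widely, as at 6 h of 2 ppm, where it was 7.13, 7.97, 8.03 and 8.41. Averaged over 5, 8 and 19 days of 6 ppm the difference was 0.24 ± 0.10 (8.34 at 6 ppm, 8.09 in air; adjusted p = 0.25).

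**Figure D2:**
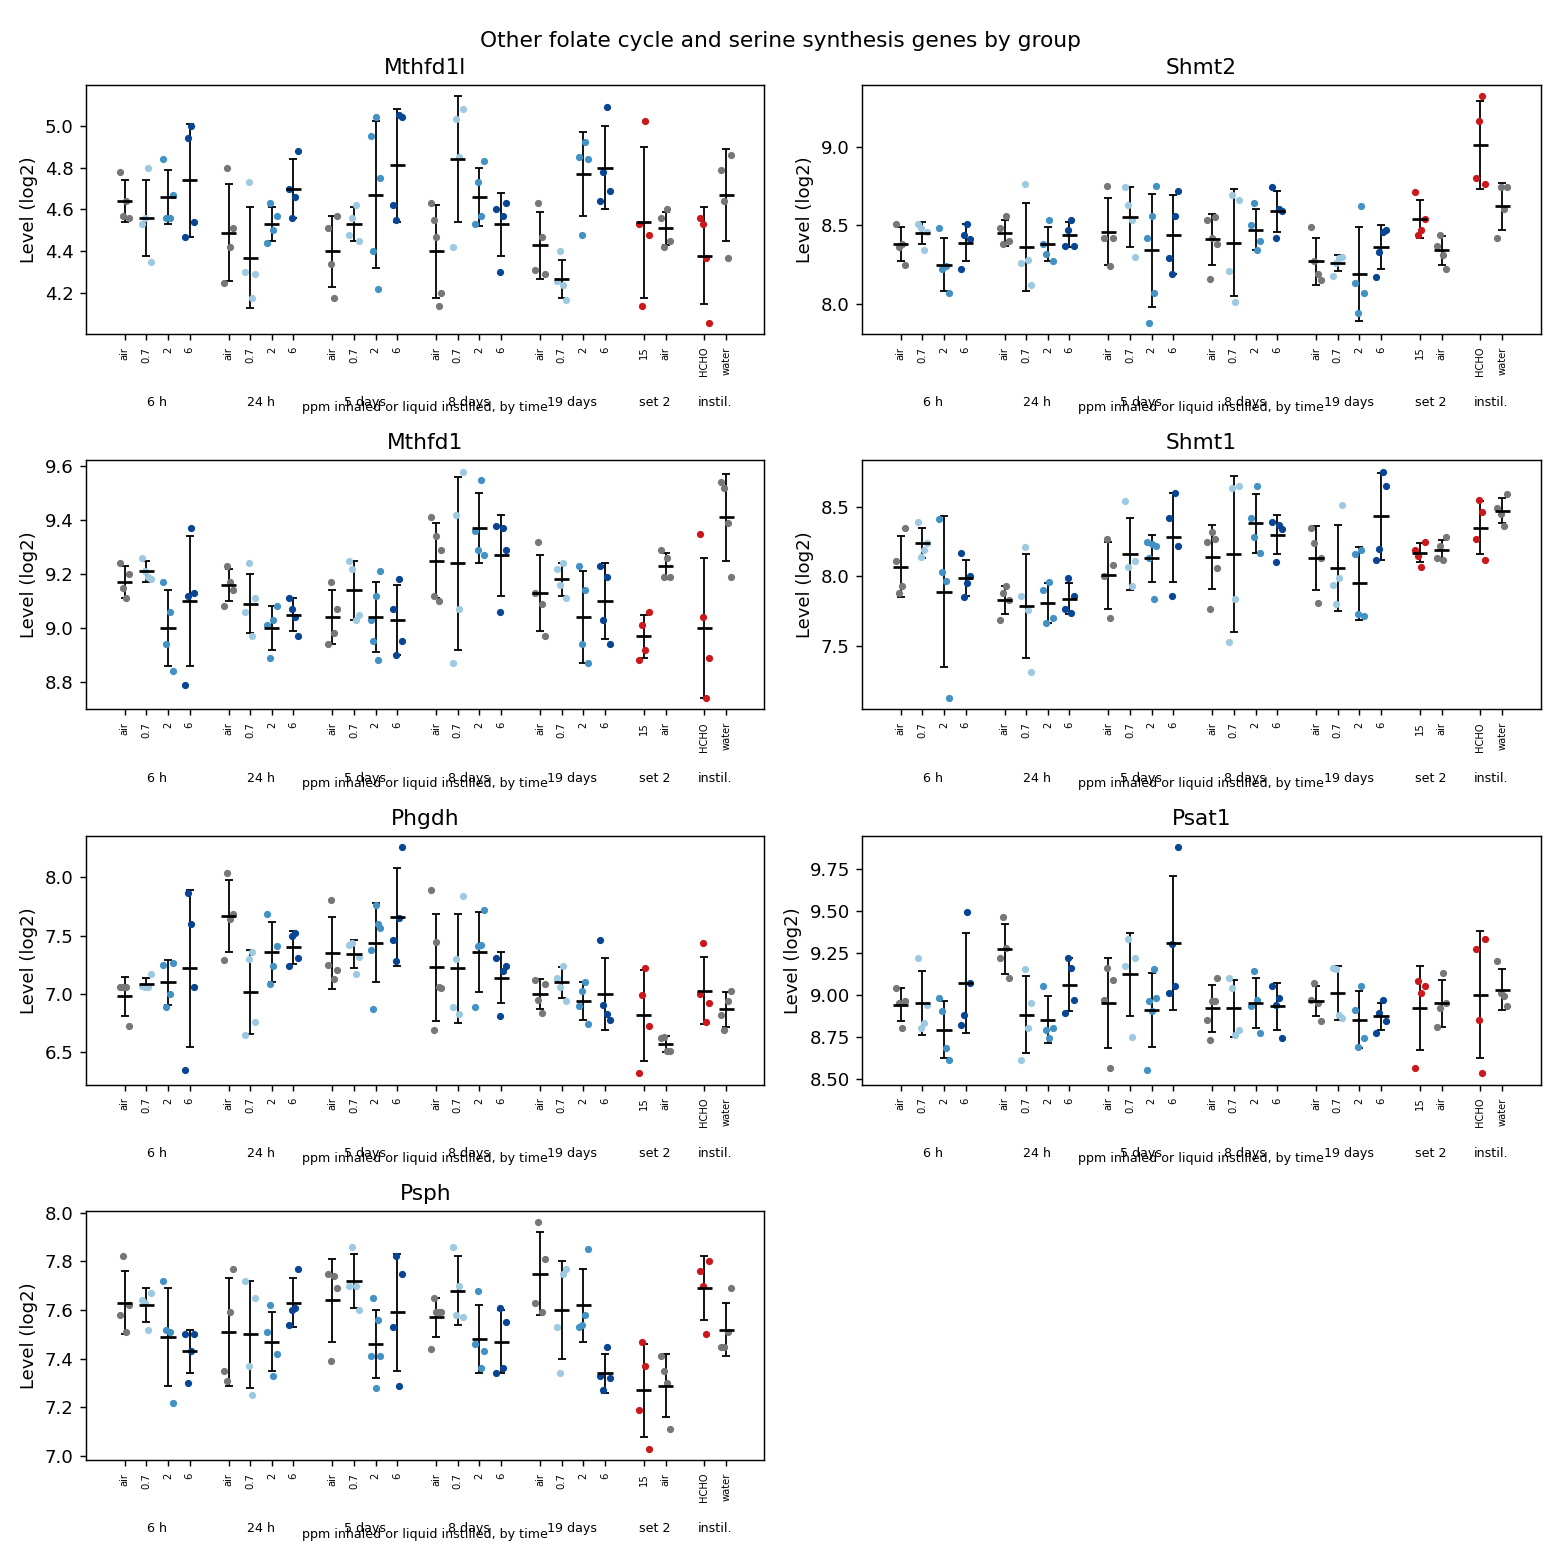
Log2 level of the other 7 genes in each animal (points), with group mean and SD, by inhaled ppm or instilled liquid (HCHO, instilled formaldehyde) within each time; each panel has its own axis range. Shmt2 stands highest after instilled formaldehyde (9.01). Mthfd1 is lowest at 15 ppm (8.97), within the spread of the next group, and Phgdh in air ranges from 6.57 at 6 h in array set 2 to 7.67 at 24 h.

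Serine synthesis from a glycolytic intermediate runs through Phgdh, which makes the first oxidation, Psat1, the transaminase, and Psph, the phosphatase of the last step. None was called in any of 17 comparisons of a dose with its control. Phgdh varied most among the members, with group means over a range of 1.10 and a mean SD within groups of 0.31. At 15 ppm it was 6.32, 6.73, 6.99 and 7.22, against 6.51, 6.51, 6.62 and 6.63 in air. The exposed animals spread to both sides of the air animals. The difference was 0.25 ± 0.21 (adjusted p = 0.583), and after instillation it was 0.16 ± 0.21 (adjusted p = 0.657). At 5 days of 6 ppm it was 7.28 to 8.26, against 7.13 to 7.81 in air, a difference of 0.31 ± 0.21 (adjusted p = 0.846).

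In air animals Phgdh was 7.29 to 8.04 at 24 h, and 6.73 to 7.06 at 6 h in array set 1, apart by 0.69 in the means. The F-test over the 5 air groups gave F = 3.48 with an adjusted p of 0.0779, and it fell under 0.05 in 2 of 21 fits without 1 animal (air animal 54 or 64). At 24 h the mean of exposed animals was below air: the difference was -0.65 ± 0.21 at 0.7 ppm (7.02 against 7.67; adjusted p = 0.455) and -0.27 ± 0.21 at 6 ppm (7.40 against 7.67; adjusted p = 0.861).

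Psat1 had its highest air mean at 24 h as well (9.27, against 8.94 at 6 h in array set 1), but this was not called. The difference was 0.33 ± 0.14 (adjusted p = 0.227), and the F-test over the 5 air groups gave F = 2.12 (adjusted p = 0.263). At 24 h Psat1 was 8.74 to 9.05 at 2 ppm, against 9.10 to 9.46 in air. That difference was -0.42 ± 0.14 without overlap (adjusted p = 0.632), and 1.39% of all probe sets were apart in this direction. At 0.7 ppm the difference was -0.39 ± 0.14 (adjusted p = 0.541), and at 6 ppm -0.21 ± 0.14 (adjusted p = 0.822). Because 3 doses share the same 4 air animals, these values are not separate observations. At 5 days of 6 ppm Psat1 was 9.01, 9.05, 9.30 and 9.88, against 8.56 to 9.16 in air, a difference of 0.36 ± 0.14 (adjusted p = 0.549) that fell to 0.17 without exposed animal 297. At 15 ppm and after instillation it differed by -0.03 and -0.04 from control.

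Psph was lowest in 15 ppm animals (7.27 ± 0.19, SD) and in their air controls (7.29 ± 0.13, SD), both of array set 2. The next mean, 7.34 ± 0.08 (SD) at 19 days of 6 ppm in array set 1, lay within their spread. The instilled groups of array set 2 were not low, with 7.69 ± 0.13 (SD) after formaldehyde and 7.52 ± 0.11 (SD) after water. The air animals of array set 2 lay below those of array set 1 at 6 h, 7.11 to 7.41 against 7.51 to 7.82, as did 7.44% of all probe sets. That difference of -0.34 ± 0.11 was called (adjusted p = 0.0456), 1 of 8 members where 4.7% of all probe sets were, and was lost in 6 of 8 fits without 1 animal: array set 2 animals 322 (-0.36), 323 (-0.34) and 325 (-0.28) and array set 1 animals 49 (-0.36), 50 (-0.28) and 53 (-0.35). Against air of its own set 15 ppm gave -0.03 ± 0.11 (adjusted p = 0.938), and against air of array set 1 it gave -0.37 (adjusted p = 0.0117). At 19 days of 6 ppm Psph was 7.27 to 7.45, against 7.59 to 7.96 in air, -0.41 ± 0.11 without overlap (4.62% of all probe sets in this direction) and with an adjusted p of 0.0598. Testing only the 15708 probe sets with a mean of at least 6 gave an adjusted p of 0.0372.

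**Figure D3:**
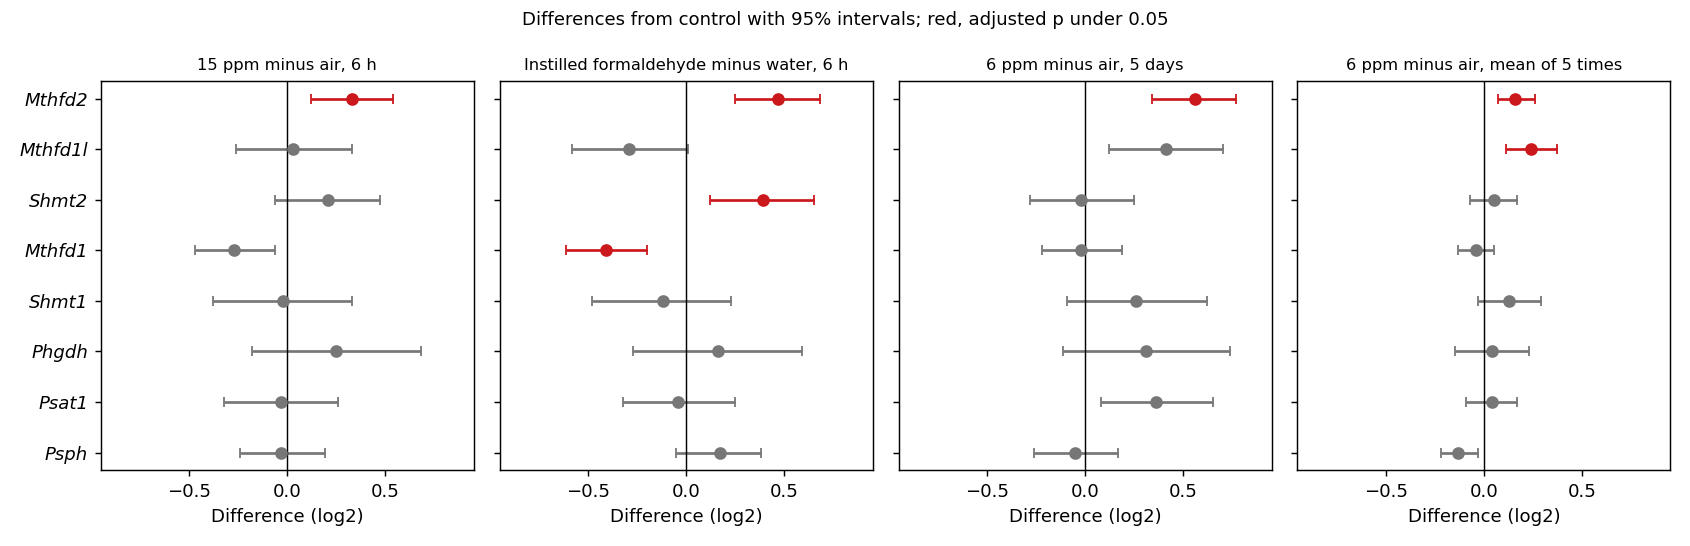
Difference of each gene from its control (log2, horizontal axis) with its 95% interval in 4 comparisons; red points have an adjusted p under 0.05. Mthfd2 is red in all 4 panels (0.33, 0.47, 0.56 and 0.16), Shmt2 and Mthfd1 only after instillation (0.39 and -0.41), and Mthfd1l only in the mean of 5 times at 6 ppm (0.24).

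At the lower doses none of 80 values (8 genes, 5 times, 0.7 and 2 ppm) was called. They ran from -0.65 to 0.44, the smallest adjusted p was 0.316, and 6 had an unadjusted p under 0.05. Few probe sets were called at these doses at all, 0.0741% at 5 days of 2 ppm, 0.00322% at 6 h of 2 ppm, 0.00644% at 5 days of 0.7 ppm and 0% in the other comparisons. Averaged over the 5 times, 0 of 8 members were called at 2 ppm (0.361% of all probe sets) and at 0.7 ppm (0%). Mthfd1l differed by 0.19 ± 0.06 at 2 ppm (adjusted p = 0.2) and by 0.04 ± 0.07 at 0.7 ppm. Instilled water against air, both at 6 h, called 0 of 8 members and 0.0129% of all probe sets, with Shmt2 at 0.29 ± 0.13 and Psph at 0.23 ± 0.11.

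The 8 genes were split in direction in the comparisons with calls. Their median difference was 0.01 at 15 ppm, 0.06 after instillation and 0.29 at 5 days of 6 ppm, beside 0.01, 0.02 and 0.01 over all probe sets. Of the 8, 4 were higher and 4 lower than control at 15 ppm and after instillation, and 5 higher and 3 lower at 5 days of 6 ppm. In both 6 ppm means, over 5 times and over 5, 8 and 19 days, 6 were higher and 2 lower (medians 0.04 and 0.09). The split was uneven in some comparisons without calls: all 8 were lower than air at 24 h of 0.7 ppm (median -0.11), 7 of 8 were lower at 24 h and at 19 days of 2 ppm (-0.10 and -0.09), and 7 of 8 were higher at 5 days of 0.7 ppm (0.11) and in water animals against air (0.21).

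Neighbouring pathways were read from lists of other genes. Of 18 further folate enzymes and transporters 1 rose at 15 ppm: Fpgs, which retains folate in cells by adding glutamates, was 7.29 against 6.91 in air (0.38 ± 0.08; adjusted p = 0.000529). After instillation 0 rose and 3 of 18 fell, no larger a share than the 22.2% called among all probe sets, as 1 of 18 is no larger than 8.49% at 15 ppm. Those that fell were Mthfs (-0.52), which recycles 5-formyl folate, Mtfmt (-0.28), which formylates the mitochondrial initiator tRNA with a folate unit, and Slc46a1 (-0.42), the proton-coupled folate importer. Averaged over 5 times of 6 ppm Slc19a1, the reduced folate carrier, rose (0.18 ± 0.04) and Mtrr, which reactivates methionine synthase, fell (-0.13 ± 0.04). In that mean 6.37% of all probe sets were called. The list medians of 0.02, 0.02 and -0.02 lay beside 0.01, 0.02 and 0 for all probe sets. Aldh1l1 and Tyms, which oxidise formyl folate and make thymidylate, were not called in these comparisons.

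Among 14 genes of glycine and serine handling, Slc1a5, a transporter of neutral amino acids, rose at 15 ppm (0.69 ± 0.17; 8.80 against 8.11 in air) and after instillation (0.61 ± 0.17; 8.95 against 8.34 after water). Slc1a4, a serine and alanine transporter, fell after instillation (-0.88 ± 0.15) and rose in the 6 ppm mean (0.35 ± 0.06; adjusted p = 0.000259). Sardh, which makes glycine from sarcosine, fell after instillation (-0.41 ± 0.13), and Amt of the glycine cleavage system fell in the 6 ppm mean (-0.20 ± 0.06). Of 9 genes of the methionine cycle, Mat2a, which makes S-adenosylmethionine, and Amd1, which decarboxylates it for polyamine synthesis, rose at 15 ppm (0.66 ± 0.08 and 1.15 ± 0.14) and after instillation (0.53 ± 0.08 and 0.96 ± 0.14). Mat2b (-0.31) and Ahcyl1 (-0.25) fell after instillation, and Amd1 (0.32) and Ahcyl1 (0.13) rose in the 6 ppm mean. The median of the 9 was 0.12 at 15 ppm and 0.10 after instillation. Of all probe sets 8.49% were called at 15 ppm, 22.2% after instillation and 6.37% in the 6 ppm mean.

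Of 20 amino acid response genes driven by ATF4, 5 rose and 0 fell at 15 ppm, and 8 rose and 0 fell after instillation, where 8.49% and 22.2% of all probe sets were called. The list medians were 0.21 and 0.27, beside 0.01 and 0.02 for all probe sets. Atf4 itself was 11.94 at 15 ppm against 11.12 in air (0.82 ± 0.08; adjusted p = 2.1e-13), and 12.34 after instilled formaldehyde against 11.28 after water (1.06 ± 0.08; adjusted p = 6.41e-19). Ddit3, a stress transcription factor, rose by 2.15 and 2.06, and Slc7a11, the cystine importer, by 2.54 and 1.92. Slc3a2, its partner chain, rose at 15 ppm (0.24 ± 0.06) and after instillation (0.29 ± 0.06). Slc38a2, a transporter of small neutral amino acids, rose at 15 ppm (0.42 ± 0.13) and after instillation (0.83 ± 0.13). Asns, asparagine synthetase, was 9.72 in both groups at 15 ppm and differed by -0.04 ± 0.12 after instillation, and Chac1, a glutathione-degrading enzyme, differed by 0.12 and 0.40, not called. Trib3, a pseudokinase, was called after instillation (0.95 ± 0.27) and not at 15 ppm (0.73 ± 0.27; adjusted p = 0.0752). At 5 days of 6 ppm, where Mthfd2 was highest, 2 of 20 rose, and 0.119% of all probe sets were called. They were Slc7a11 (1.58 ± 0.34, adjusted p = 0.0225) and Slc3a2 (0.28 ± 0.06, adjusted p = 0.0158). Atf4 differed by 0.10 ± 0.08 (adjusted p = 0.873).

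Between air animals at 24 h and at 6 h, limma called Mthfd2 (adjusted p = 0.000576) but not Phgdh (0.0534) or Psat1 (0.227). In these animals Asns was 10.15 at 24 h against 9.49 at 6 h, and Atf4 11.79 against 11.44. The rest of the amino acid response list is not given for this comparison, so these values do not describe the list. Of 12 cell cycle and DNA synthesis genes only Pcna, the sliding clamp of DNA polymerase that is also induced by DNA damage, rose: by 0.79 ± 0.09 at 15 ppm and 1.01 ± 0.09 after instillation. In these comparisons 8.49% and 22.2% of all probe sets were called. Of 3 genes of the formaldehyde oxidation pathways (Adh5, Esd and Aldh2), 0 were called. Adh5, the formaldehyde dehydrogenase, differed by -0.15 ± 0.14 at 15 ppm and -0.34 ± 0.14 after instillation (adjusted p = 0.0735).

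**Figure D4:**
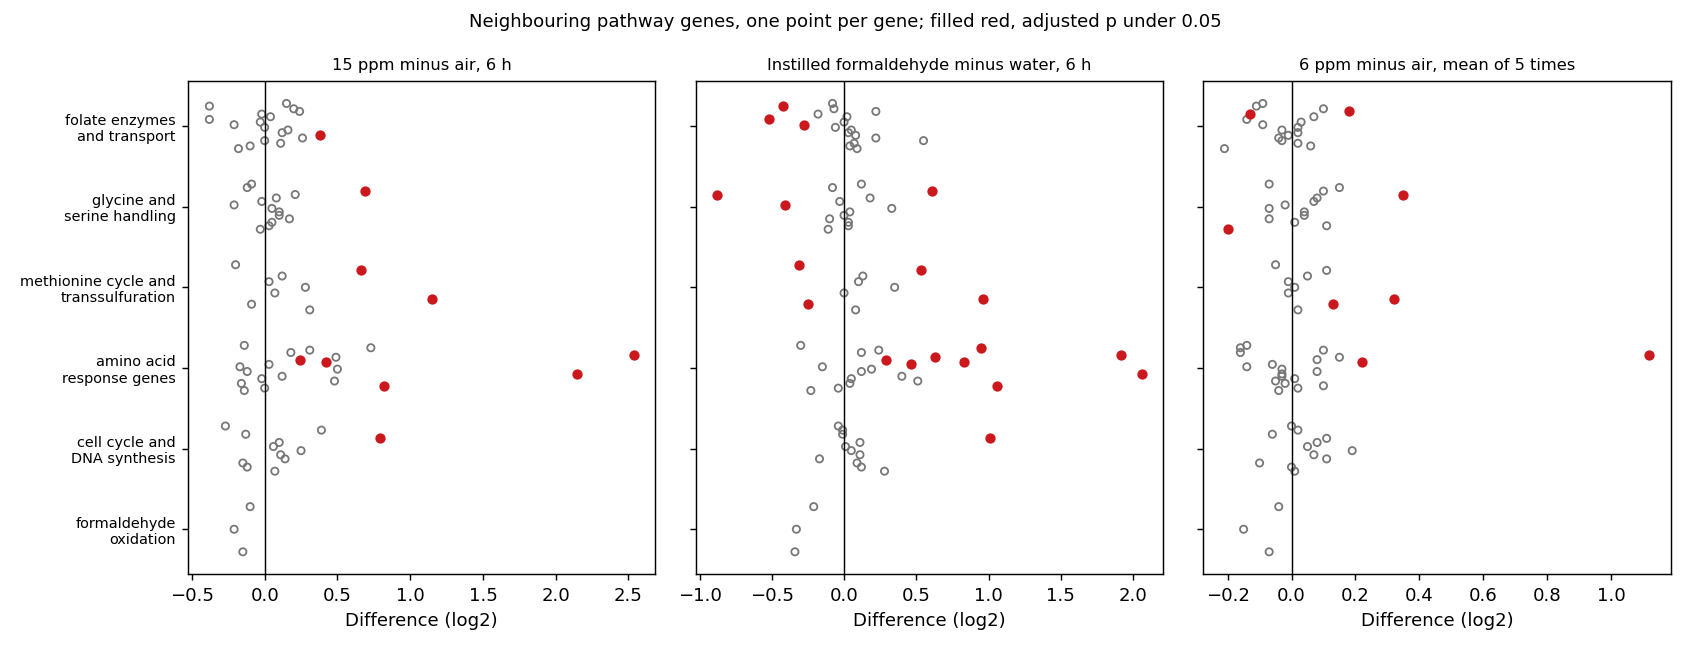
Differences (log2, horizontal axis) of genes of 6 neighbouring lists at 15 ppm, after instillation and in the mean of 5 times at 6 ppm, 1 point per gene; filled red points have an adjusted p under 0.05, and axis ranges differ between panels. In the amino acid response list 5, 8 and 2 genes of 20 are red, all to the right of 0.

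Across the 24 group means the genes most like Mthfd2 were Srpra (Pearson r = 0.77), Ythdf1 (0.76), Slc38a1 (0.75), Gnl1 (0.75) and Slc7a1 (0.74). For Psat1 they were Asns (0.75), Bckdk (0.74), Alg3 (0.73), Irak1 (0.73) and Nt5dc2 (0.70). For Phgdh they were Tpd52l1 (0.86), Ndufa3 (0.84), Tfap2c (0.84), Ssr4 (0.84) and Eif4ebp1 (0.83). These are descriptions over groups that share array sets, times and the mix of cells. Among members, Mthfd2 correlated at 0.59 with Phgdh, 0.49 with Psat1 and -0.50 with Mthfd1 over the same means, and at 0.36, 0.21 and -0.37 over the 98 arrays. With amino acid response genes Mthfd2 correlated over the means at 0.69 (Asns), 0.67 (Atf4), 0.30 (Trib3), 0.30 (Ddit3), 0.25 (Slc7a11) and -0.16 (Chac1).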

How the data were processed

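The values are log2 expression levels per probe set of 98 Affymetrix Rat230_2 arrays, as the authors deposited them. The summarisation and normalization are not given in the sources used here. Scale was read from the values, 2.67 to 14.83. Groups come from the labels. One 8-day group has 0.07 ppm in 1 field and 0.7 ppm in the others, and was taken as 0.7 ppm. Control probe sets (57) were left out, with no filter on low values. Of 31042 probe sets 20826 have 1 gene symbol, 436 several and 9780 none listed. limma 3.58.1 (R 4.3.3) was fitted with 1 coefficient for each of 24 groups (74 residual degrees of freedom), and the test was checked on simulated data. Array number, 4 or 5 animals a group, limits the precision, and no 2 arrays were identical. The genes and lists were chosen with earlier results of these data known. Named list genes are all called members, or the 4 with the smallest p where over 5 were called, plus Atf4, Asns, Trib3, Chac1, Adh5, Aldh1l1 and Tyms. Alternatives were other normalization, a filter at a mean of 6, smaller fits, another prior, RNA integrity (85 arrays), another control and leaving out animals. Promoters are RefSeq sequences of GRCr8.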

Additional observations from a re-analysis of the deposited data

Results flagged for a closer look

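In 8 of 192 combinations of a gene and a group, 1 animal lay apart from its group by Dixon's criterion, which chance meets in about 1 in 20. Mthfd1l was 4.48 in animal 232 at 19 days of 2 ppm, below the others at 4.84 to 4.92. Shmt1 was 8.10 in animal 299 at 8 days of 6 ppm, below 8.34 to 8.39. Phgdh lay apart 3 times: 7.17 in animal 131 at 6 h of 0.7 ppm (others 7.06 to 7.07), 7.81 in air animal 61 at 5 days (others 7.13 to 7.25), and 6.73 in air animal 53 at 6 h of array set 1 (others 7.06). Psat1 was 8.56 in animal 337 at 15 ppm, below 9.01 to 9.08. Psph was 7.85 in animal 234 at 19 days of 2 ppm, above 7.53 to 7.58, and 7.44 in air animal 64 at 8 days, below 7.59 to 7.65.

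At 0.7 and 2 ppm, 3 of 16 combinations of a gene and a dose had times at which all exposed animals lay on opposite sides of the air mean. The difference between those times was not tested. Mthfd1l at 0.7 ppm differed from air by 0.13 at 5 days, 0.44 at 8 days and -0.16 at 19 days. Mthfd1 at 2 ppm differed by -0.17 at 6 h, -0.15 at 24 h and 0.12 at 8 days. Phgdh at 0.7 ppm differed by 0.11 at 6 h and -0.65 at 24 h.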

How the results depend on the processing

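The single-gene differences recomputed under the alternatives were those with an unadjusted or adjusted p under 0.05 in the main limma fit. None of these changed sign, and not every comparison was recomputed. Outside that selection, 3 uncalled differences at 15 ppm changed sign with air of array set 1 as control: Phgdh was -0.16 in place of 0.25, Mthfd1l -0.09 in place of 0.03 and Shmt1 0.10 in place of -0.02. Fits of only the groups compared gave 1 call after instillation in place of 3, 0 over the 5 times of 6 ppm in place of 1, 0 in the 5, 8 and 19 day mean in place of 1 and 2 between the air sets in place of 1; Mthfd2 at 15 ppm (0.33, adjusted p = 0.056), Shmt2 (0.39, 0.119) and Mthfd1 (-0.41, 0.0943) after instillation, Mthfd2 at 5 days (0.56, 0.15) and Mthfd1l in the 5, 8 and 19 day mean (0.30, 0.0707) missed the threshold. With RNA integrity as a covariate 0 genes were called in either 6 ppm mean and 0 between the air sets: Mthfd2 0.16 (0.0846), Mthfd1l 0.21 (0.0849) and, over 5, 8 and 19 days, 0.29 (0.148), and Psph -0.34 (0.0869). Mthfd1l over 5, 8 and 19 days was 0.29 (0.0741) after cyclic loess and 0.28 (0.0833) after quantile normalization, which also left 0 calls between the air sets (Psph -0.33, 0.0556). A mean level of at least 6 kept 7 members, leaving out Mthfd1l, and gave 2 calls over the 5 times of 6 ppm and 1 in their mean. Air of array set 1 as control gave 2 calls at 15 ppm. Mthfd2 over 5, 8 and 19 days, not called, passed after cyclic loess (0.23, 0.0348), quantile normalization (0.24, 0.0239) and with the filter (0.22, 0.0358). With air of array set 1 as control 15.3% of all probe sets were called. For the other alternatives, and for fits without 1 animal, that share is not given here. A changed count therefore cannot be read as particular to these genes. The causes were not tested.

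Without 1 animal, calls numbered 0 to 1 at 15 ppm, 2 to 3 after instillation, 1 to 2 over the times of 6 ppm (2 without animal 296), 1 to 2 in the 6 ppm mean (1 without animal 290, where Mthfd2 was 0.15), 0 to 2 over 5, 8 and 19 days, 0 to 1 between air sets and 1 to 2 across air times. Mthfd2 ranged from 0.27 to 0.38 at 15 ppm and from 0.15 to 0.19 in the 6 ppm mean, Shmt2 from 0.28 to 0.47 after instillation, Mthfd1l from 0.27 to 0.33 over 5, 8 and 19 days and Psph from -0.38 to -0.28 between air sets. No paired analysis was possible because the replicate numbers are animal IDs that no 2 groups share. Each member had 1 probe set, so no other probe set could be tried. Over 98 arrays the 5 genes most like Mthfd2 shared Srpra with those over group means, those for Phgdh shared Eif4ebp1, and those for Psat1 shared none.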
